A study of Mus musculus with 12 samples.

Results

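The transcripts of 8 regulators of nephron identity and of energy metabolism were followed in the mouse kidney after ischemia-reperfusion, namely Hnf4a, Pax2, Pax8, Ppara, Esrra, Esrrg, Ppargc1a and Rxra. They were taken by symbol from the table of raw counts, 8 of 23420 genes. All 8 had enough counts to be tested, among 11664 genes in all. The mRNA of 12 whole kidneys of male C57BL/6J mice was sequenced, 4 control kidneys and 8 kidneys collected 24 h after ischemia. The study's methods describe the controls as kidneys removed at nephrectomy on the right, with clamping on the left, whereas its results text speaks of sham surgery. If the methods hold for these kidneys, neither the clamp surgery nor the side of the body can be told apart from ischemia. The same then holds for the removal of the other kidney, the time since that surgery and the buprenorphine given. The sources do not settle this. The labels give a clamping of the renal pedicle for 20 min to every kidney, controls included. The sources do not settle whether a control kidney and an ischemic kidney could come from the same mouse. For the ischemic kidneys the labels contradict each other. The 4 kidneys of ischemia set A are titled as anaesthetised but have conscious in the group field, and the 4 kidneys of ischemia set B are titled as conscious but have anesthesia in the group field. The names A and B are therefore neutral, and nothing below assigns a direction to anaesthesia.

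HNF4A is a nuclear receptor without which proximal tubule cells do not acquire or keep their transport and metabolic genes, and PAX2 and PAX8 are paired-box factors that specify the nephric lineage and remain expressed in the adult tubule epithelium. PPARA, the receptor for fatty acids, switches on genes of fatty acid oxidation, and binds DNA as a heterodimer with RXRA, the shared partner of many nuclear receptors. ESRRA and ESRRG are orphan receptors that drive genes of mitochondrial respiration, and PPARGC1A (PGC-1alpha) is the coactivator that binds the estrogen-related receptors, PPARs and HNF4A and raises their activity. The proximal tubule depends on fatty acid oxidation for its energy and is a segment easily injured by ischemia.

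The 8 genes did not all move in the same direction. Hnf4a, Rxra, Esrra, Esrrg and Ppargc1a were lower in both ischemic sets than in the controls, Pax8 was higher in both, and Pax2 did not pass the test in either. Ppara had lower levels in every ischemic kidney than in every control kidney without passing the test across all genes. In set A against control, 5 members were past the threshold as lower and 1 as higher, where 22.3% of all genes tested were past it in either direction (11.7% lower and 10.5% higher). In set B against control the count was again 5 lower and 1 higher, beside 22.8% of all genes (11.9% lower and 10.9% higher). The threshold was an adjusted p of 0.05 in the quasi-likelihood test of edgeR, adjusted by Benjamini-Hochberg over all 11664 genes. The median log2 fold change of the 8 members was -1.17 and -0.99 in the respective sets, beside -0.02 over all genes in each. The ranges of CPM (counts scaled to library size, corrected by the TMM method of edgeR) did not overlap between set A and control for 6 members that were lower, Ppara included, and 1 that was higher, beside 15.7% and 12.6% of all genes. Between set B and control they did not overlap for 6 members that were lower and 1 that was higher, beside 15.1% and 11.6% of all genes. Over all 8 ischemic kidneys against control, 5 members were lower and 1 higher past the threshold, beside 26.4% of all genes, and the ranges did not overlap for 6 that were lower and 1 that was higher, beside 11.7% and 8.43%. These comparisons use the same 4 control kidneys and are not independent of each other.

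**Figure D1:**
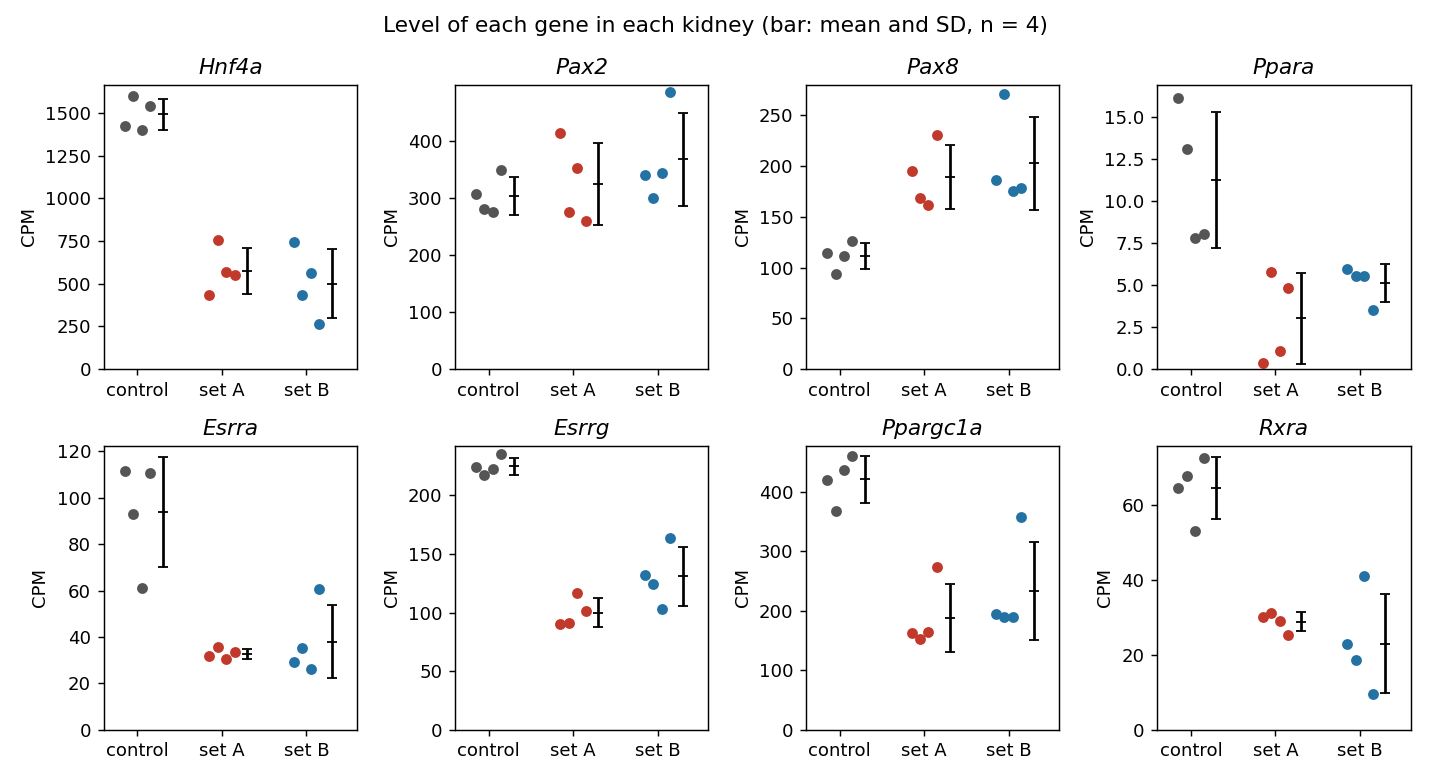
CPM of each gene (vertical axes, each starting at 0) in the 4 control, 4 set A and 4 set B kidneys, 1 point per kidney, with the mean and SD of each group beside the points. Hnf4a lies between 1401 and 1597 CPM in the controls and between 262 and 754 CPM in the ischemic kidneys, whereas the Pax2 ranges of the groups overlap.

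Total counts per kidney lay between 15367342 and 44793350, and a detection floor of 3 counts corresponded to between 0.067 and 0.195 CPM, which covers counting error only. The labelled tissue was checked on marker genes. The summed level of 10 proximal tubule markers was between 16813 and 17925 CPM in the controls, between 2166 and 3580 CPM in set A and between 1673 and 4534 CPM in set B, and all 10 markers were past the threshold as lower in each set. The summed level of 9 injured tubule markers was between 34.9 and 46.0 CPM in the controls and between 746 and 1682 CPM in the ischemic kidneys. Blood, fat and adrenal markers summed to at most 5.55 CPM in any kidney, with 2 of 3, 5 of 6 and 5 of 6 of them at 0 in every kidney. Only 3 of the 5 listed blood markers were in the count table, so their sum cannot show how much blood was present. Replicate 4 of set B stood apart from the other ischemic kidneys, with the lowest proximal tubule sum (1673 CPM), the highest thick ascending limb sum (795 CPM, against 284 to 401 CPM in the other 7) and the highest injured tubule sum (1682 CPM). Values without this kidney are also given below for most members and for several family genes and shares. Since whole kidneys were sequenced, fewer cells of a type and less RNA of a gene per cell cannot be told apart, and the part that the fall of proximal tubule markers has in the results below was not tested.

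The members lie on 5 chromosomes of GRCm38, the assembly also called mm10, and each was counted over all its exons. Hnf4a (chr2:163506808-163572910, plus strand), Rxra (chr2:27676440-27762957, plus strand) and Pax8 (chr2:24420560-24475599, minus strand) are on chromosome 2, and Pax2 (chr19:44756045-44837871, plus strand) and Esrra (chr19:6910977-6921813, minus strand) on chromosome 19. Esrrg (chr1:187608791-188214885, plus strand), Ppargc1a (chr5:51454250-51567726, minus strand) and Ppara (chr15:85734983-85802819, plus strand) are each alone on theirs. The exons of Esrra share 73 bases with those of Trmt112 on the opposite strand, and those of Pax8 share 367 bases with the noncoding Gm13415, also on the opposite strand. The library kit marked strand, but the strand setting of the counting is not given in the sources used here.

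The start regions of 4 members are shown, the member with the highest level (Hnf4a), the coactivator (Ppargc1a), an ERR gene that fell (Esrra) and the gene that rose (Pax8), so that the regulators can be compared at the level of DNA. Each is the 250 bases before a RefSeq transcription start, read 5′ to 3′ on the strand of the gene, with matches to the searched motifs in capitals. The sequences are those of RefSeq on GRCm38.p6, at chr2:163546905-163547154 (plus strand, the downstream of 2 Hnf4a starts), chr5:51567726-51567975 (minus strand), chr19:6921809-6922058 (minus strand) and chr2:24475600-24475849 (minus strand).
Hnf4a: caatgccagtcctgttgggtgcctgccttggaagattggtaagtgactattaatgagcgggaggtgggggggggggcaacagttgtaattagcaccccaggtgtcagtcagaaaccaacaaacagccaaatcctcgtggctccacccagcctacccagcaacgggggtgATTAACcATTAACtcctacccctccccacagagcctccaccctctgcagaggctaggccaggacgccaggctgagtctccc
Ppargc1a: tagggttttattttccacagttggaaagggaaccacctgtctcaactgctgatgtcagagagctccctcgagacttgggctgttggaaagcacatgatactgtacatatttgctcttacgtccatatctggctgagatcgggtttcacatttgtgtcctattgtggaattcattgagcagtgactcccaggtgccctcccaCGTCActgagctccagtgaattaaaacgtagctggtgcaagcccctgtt
Esrra: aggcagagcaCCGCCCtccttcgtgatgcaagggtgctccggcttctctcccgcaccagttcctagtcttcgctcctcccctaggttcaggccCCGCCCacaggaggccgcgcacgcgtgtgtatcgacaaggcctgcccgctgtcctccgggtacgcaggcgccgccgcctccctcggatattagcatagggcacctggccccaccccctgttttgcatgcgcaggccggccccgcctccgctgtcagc
Pax8: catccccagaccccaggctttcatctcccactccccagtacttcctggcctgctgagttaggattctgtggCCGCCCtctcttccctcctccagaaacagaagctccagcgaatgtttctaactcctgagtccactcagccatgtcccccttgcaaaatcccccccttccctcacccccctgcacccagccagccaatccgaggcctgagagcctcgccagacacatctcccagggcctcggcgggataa
The capitals mark the motif GTTAAT (on the opposite strand ATTAAC) in Hnf4a, a cAMP response half-site (TGACG, on the opposite strand CGTCA) in Ppargc1a, and GC boxes (GGGCGG, on the opposite strand CCGCCC) in Esrra and Pax8.

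All 8 members had such windows, 15 in total, and 11 motifs were searched in them on both strands. The pair of GTTAAT matches lies between 81 and 69 bases before the Hnf4a start, and this window was the only one of the 15 with that motif, which occurred in 6.43% of 32851 promoters of the same length. TGACG was found 49 to 45 bases before the Ppargc1a start and in the window of Ppara, and in 17.77% of all promoters. The GC box was found in 9 of the 15 windows and in 32.74% of all promoters. The nuclear receptor half-site (AGGTCA) was found in 1 window, of Rxra (14.02% of all promoters), and the NRF1 element (GCGCA followed by TGCGC) in 1, of Ppara (0.78%). No match was found for the ERR element TCAAGGTCA, the HNF4 element CAAAGTCCA, the direct repeat (a pair of AGGTCA spaced by a single base), the palindrome (GTTAAT and ATTAAC spaced by a single base), the cAMP response element TGACGTCA or the E-box CACGTG, which occurred in 0.39%, 0.38%, 0.03%, 0.01%, 1.55% and 6.02% of all promoters. The half-site AGGTCA also lies within TCAAGGTCA and within the direct repeat, GTTAAT within the palindrome, and TGACG within TGACGTCA. These matches describe letters in a window and not occupied sites.

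Among the lineage regulators, Hnf4a had the highest level per kilobase of exon of all 8 members in the controls. Its level was 1426, 1597, 1401 and 1540.3 CPM in control kidneys 1 to 4, 431, 754, 565 and 550.4 CPM in set A, and 742, 431, 565 and 262 CPM in set B. Every ischemic kidney was below every control kidney, and replicate 4 of set B was the lowest of all 12. The mean was 1491 ± 93.3 CPM in the controls, 575 ± 133 and 499.9 ± 203 CPM in sets A and B (SD, n = 4 each). Hnf4a was 2.59-fold lower in set A (log2 fold change -1.37, SE 0.22, adjusted p = 1.09e-04 in edgeR's quasi-likelihood test) and 2.98-fold lower in set B (-1.58, SE 0.22, adjusted p = 2.48e-05). Without replicate 4 of set B the log2 fold change in set B was -1.36 (adjusted p = 5.13e-06 in edgeR).

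Pax8 went the other way. It was at 114, 94.0, 111 and 126 CPM in the controls, at 195, 169, 162 and 231 CPM in set A, and at 186, 271, 176 and 178 CPM in set B. All 8 ischemic kidneys were above the highest control, and replicate 2 of set B was the highest. The mean rose from 111 ± 13.2 CPM to 189 ± 31.2 and 203 ± 45.8 CPM in sets A and B (SD, n = 4). The log2 fold change in set A was 0.76 (SE 0.16, adjusted p = 0.00161 in edgeR), and that in set B 0.87 (SE 0.16, adjusted p = 5.31e-04).

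Pax2, its paralog in the nephric lineage, had 306, 281, 276 and 349 CPM in the controls, 414, 275, 352 and 259 CPM in set A, and 341, 299, 343 and 486 CPM in set B. The ranges overlapped in each comparison, with 2 kidneys of set A below the lowest control and replicate 4 of set B above all others. Its log2 fold change was 0.10 in set A (95% confidence interval -0.24 to 0.45, adjusted p = 0.783 in edgeR) and 0.28 in set B (-0.07 to 0.62, adjusted p = 0.275). Changes of Pax2 inside those intervals could not be told from none at this number of kidneys. The value in set B was 0.11 without replicate 4 of set B (adjusted p = 0.716).

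The ratio of Pax8 to Hnf4a, each as CPM per kilobase of exon, was 0.0597 ± 0.00861 in the controls, 0.275 ± 0.0863 and 0.373 ± 0.174 in sets A and B (SD, n = 4). No ischemic kidney had a ratio inside the range of the controls. This follows from the values of Pax8 and Hnf4a given above, whose ranges lay apart from the controls in opposite directions. The permutation p of the ratio was therefore fixed at its smallest value and adds no evidence to them. The exact two-sided permutation test gave p = 0.0286 for each set, the smallest value that 4 against 4 kidneys allow, and p = 0.00404 for all 8 ischemic kidneys, the smallest that 8 against 4 allow. Adjusted over the 28 ratios and shares compared (7 quantities in 4 comparisons), these became 0.0727 and 0.0377 by Benjamini-Hochberg. Without replicate 4, the ratio in set B was 0.316 ± 0.162 (SD, n = 3).

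Of the metabolic receptors, Rxra was at 64.7, 67.8, 53.2 and 72.6 CPM in the controls, at 30.1, 31.2, 29.0 and 25.4 CPM in set A, and at 22.9, 18.5, 41.1 and 9.65 CPM in set B. The controls lay above all ischemic kidneys. Set A was narrow while set B ran from the lowest level of all, in replicate 4, to the highest ischemic level, in replicate 3. The log2 fold change was -1.16 in set A (SE 0.30, adjusted p = 0.00827 in edgeR) and -1.48 in set B (SE 0.31, adjusted p = 0.00119). Without replicate 4 of set B it was -1.23 in set B (adjusted p = 0.00107 in edgeR).

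Ppara had the fewest counts of the members, with 336, 503, 202 and 307 counts in the controls, 12, 135, 48 and 80 counts in set A, and 177, 87, 114 and 55 counts in set B. These corresponded to 16.1, 13.1, 7.79 and 8.02 CPM in the controls, 0.381, 5.78, 1.06 and 4.82 CPM in set A, and 5.96, 5.50, 5.51 and 3.49 CPM in set B. No ischemic kidney reached the lowest control, and replicates 1 and 3 of set A were the lowest of all. The log2 fold change was -1.91 in set A (SE 0.69, adjusted p = 0.0554 in edgeR) and -1.13 in set B (SE 0.68, adjusted p = 0.277), so neither passed the threshold. The exact two-sided permutation test of Ppara alone gave p = 0.0286 in each set, with no adjustment for other genes. Over all 8 ischemic kidneys against the controls the log2 fold change was -1.52 (SE 0.56, adjusted p = 0.0509 in edgeR). The call in set A depended on the setting, with an adjusted p of 0.0299 in DESeq2, 0.0186 in limma-trend, 0.0322 without replicate 2 of set A and 0.0473 without replicate 4 of set B, in a range from 0.0186 to 0.166 over 20 alternatives.

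The ERR genes both fell. Esrra was at 112, 92.8, 60.9 and 111 CPM in the controls, at 31.7, 35.5, 30.5 and 33.6 CPM in set A, and at 29.2, 35.4, 26.2 and 60.7 CPM in set B. Replicate 4 of set B lay just under control replicate 3, and the other 7 ischemic kidneys lay well below. The log2 fold change was -1.52 in set A (SE 0.25, adjusted p = 1.50e-04 in edgeR) and -1.31 in set B (SE 0.25, adjusted p = 6.08e-04). Without replicate 4 of set B it was -1.64 in set B (adjusted p = 1.23e-05 in edgeR).

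Esrrg had the narrowest spread of the members relative to its mean in the controls, with 224, 218, 222 and 235 CPM. It was at 90.2, 90.8, 117 and 101 CPM in set A and at 132, 125, 103 and 164 CPM in set B. No ischemic kidney reached the controls, and 3 of the 4 kidneys of set B were above the highest of set A. The log2 fold change was -1.17 in set A (SE 0.15, adjusted p = 6.58e-06 in edgeR) and -0.78 in set B (SE 0.15, adjusted p = 5.31e-04). Without replicate 4 of set B it was -0.91 in set B (adjusted p = 6.53e-05 in edgeR).

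Ppargc1a, the coactivator, was at 419, 367, 436 and 461 CPM in the controls, at 162, 153, 164 and 274 CPM in set A, and at 194, 190.1, 189.8 and 357 CPM in set B. In each set the other 3 kidneys lay close together and replicate 4 stood above them, in set B just under the lowest control. The log2 fold change was -1.16 in set A (SE 0.21, adjusted p = 3.17e-04 in edgeR) and -0.85 in set B (SE 0.21, adjusted p = 0.00468). Without replicate 4 of set B it was -1.14 in set B (adjusted p = 4.41e-05 in edgeR).

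**Figure D2:**
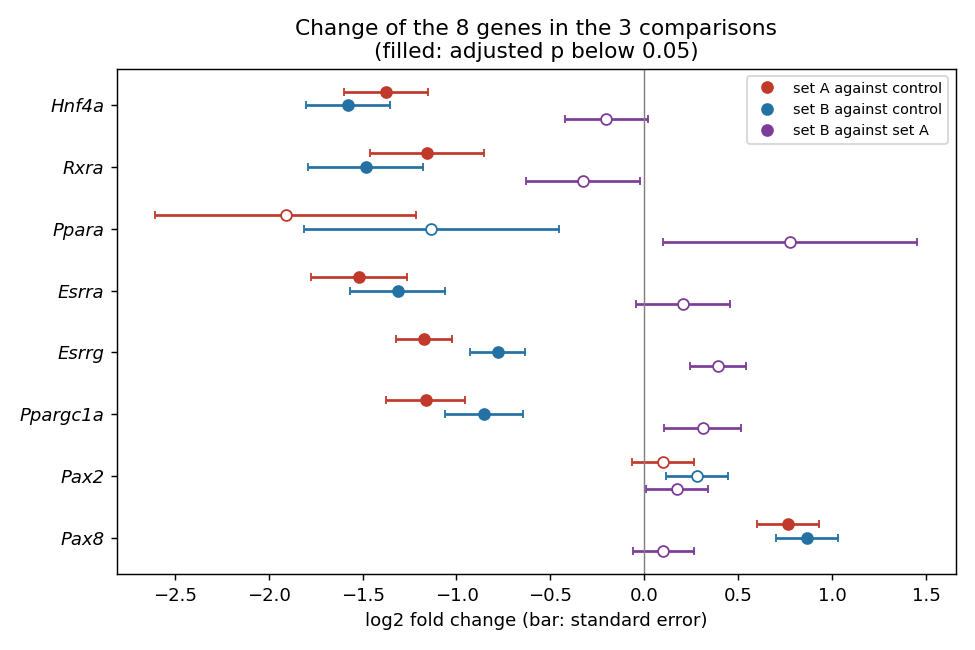
Log2 fold change (horizontal axis) of each gene for either set against the controls and for the sets against each other, with bars of 1 standard error and filled points where the adjusted p was below 0.05. The filled points lie left of 0 for Hnf4a, Rxra, Esrra, Esrrg and Ppargc1a and right of 0 for Pax8, and every point of set B against set A is open.

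The members did not move as a block within the kidneys. In replicate 4 of set B, Hnf4a was 2.50 and Rxra 2.73 below the control mean on the log2 scale, farther below it than in any other ischemic kidney, whereas Ppargc1a (0.23 below), Esrrg (0.46 below) and Esrra (0.59 below) were nearer to it than in any other. Pax2 was highest in the same kidney, at 0.69 above. Its thick ascending limb, collecting duct and injured tubule marker sums were also the highest of the ischemic kidneys, and its proximal tubule sum the lowest. In replicate 1 of set A, Ppara stood at -4.81 relative to the control mean, and in replicate 3 of set A it stood at -3.34, while Hnf4a, Esrra and Rxra were lowest in other kidneys.

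**Figure D3:**
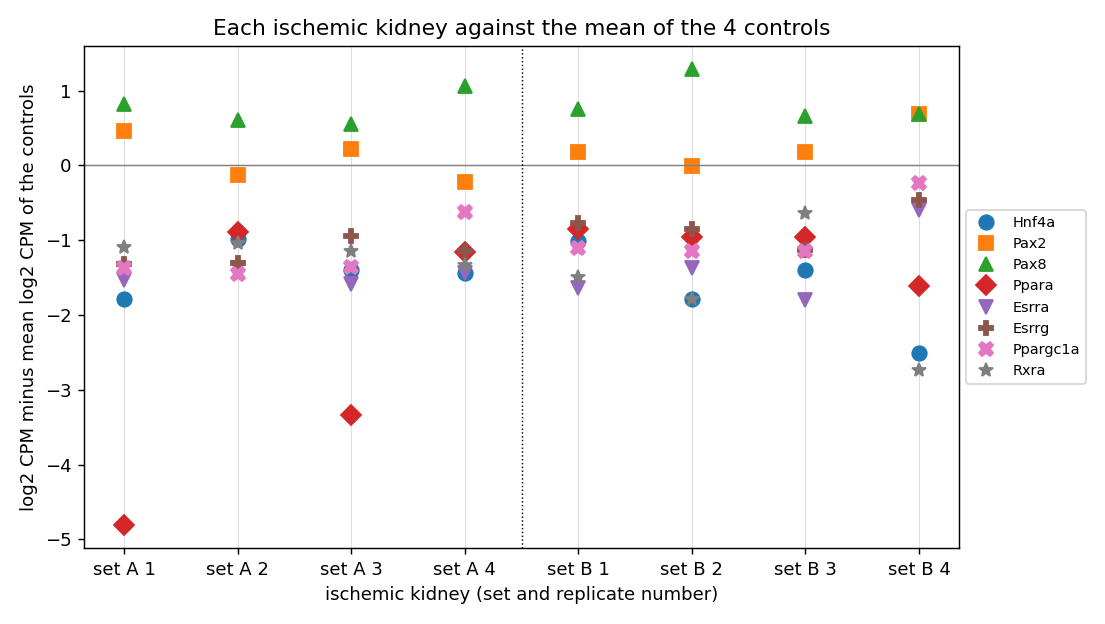
Log2 CPM of each gene minus the mean log2 CPM of the 4 controls (vertical axis) in each of the 8 ischemic kidneys (horizontal axis). Pax8 lies above 0 in all 8 kidneys, 6 genes lie below 0 in all 8, and replicate 4 of set B spreads from -2.73 (Rxra) to 0.69 (Pax2).

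The sets were then compared directly. None of the 8 members passed the threshold in set B against set A in edgeR's quasi-likelihood test, beside 0.00857% of all genes tested, which was 1 gene, Slc5a12. This lactate transporter gene, named here after its values were seen, was higher in set B and is among both the proximal tubule markers and the HNF4A-dependent genes counted below. At an unadjusted p below 0.05, 1 member (Esrrg) and 587 of all genes were found, and no member had ranges that did not overlap (1.29% of all genes higher and 1.32% lower). DESeq2 called 29 genes of all those tested and limma-trend 0, none of them a member. The difference in Esrrg was 0.39 on the log2 scale (95% confidence interval 0.08 to 0.70, unadjusted p = 0.0157 and adjusted p = 0.930 in edgeR). The interval for set B against set A ran from -0.66 to 0.26 for Hnf4a, from -0.17 to 0.52 for Pax2, from -0.24 to 0.44 for Pax8 and from -0.64 to 2.20 for Ppara. It ran from -0.32 to 0.73 for Esrra, from -0.12 to 0.74 for Ppargc1a and from -0.96 to 0.31 for Rxra. With 4 kidneys in each set, differences inside these intervals could not be told from none. Without replicate 4 of set B, 0 members were past an unadjusted p of 0.05, and the difference in Esrrg fell from 0.39 to 0.27 (adjusted p = 0.890 in edgeR). The difference was then 0.01 for Hnf4a and -0.12 for Esrra, the opposite sign to -0.20 and 0.21 with that kidney. It was 0.03 in place of 0.31 for Ppargc1a, -0.07 in place of -0.33 for Rxra and 0.01 in place of 0.18 for Pax2. For Pax8 it was 0.16 in place of 0.10, and for Ppara 0.92 in place of 0.78.

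Levels were also ordered within each group, per kilobase of exon so that genes of different length can be set side by side. In the controls Hnf4a was first with 309 ± 19.3 CPM per kb, followed by Ppargc1a (63.9 ± 6.02), Pax2 (56.0 ± 6.20), Esrrg (36.2 ± 1.18), Esrra (21.4 ± 5.40), Pax8 (18.4 ± 2.18), Rxra (11.8 ± 1.51) and Ppara (2.93 ± 1.06), all SD with n = 4. The ranges of neighbours overlapped for Ppargc1a and Pax2 and for Esrra and Pax8. In set A the order was Hnf4a (119 ± 27.6), Pax2 (60.1 ± 13.3), Pax8 (31.2 ± 5.15), Ppargc1a (28.5 ± 8.70), Esrrg (16.1 ± 1.98), Esrra (7.48 ± 0.496), Rxra (5.30 ± 0.461) and Ppara (0.784 ± 0.700), with overlap between neighbours for Pax8 and Ppargc1a. In set B the order was Hnf4a (104 ± 42.1), Pax2 (67.9 ± 15.1), Ppargc1a (35.3 ± 12.6), Pax8 (33.5 ± 7.55), Esrrg (21.1 ± 4.05), Esrra (8.63 ± 3.57), Rxra (4.22 ± 2.43) and Ppara (1.33 ± 0.288). There the ranges of Hnf4a and Pax2, of Ppargc1a and Pax8, and of Esrra and Rxra overlapped. Pax8 was thus in place 6 in the controls, place 3 in set A and place 4 in set B, with its range overlapping that of a neighbour in each group. The place in set B rested on replicate 4, without which Pax8 (34.8 ± 8.64) was in place 3, ahead of Ppargc1a (29.04 ± 0.390), both SD with n = 3 and with ranges that still overlapped. The overlap of Hnf4a and Pax2 in set B also came from this kidney alone, since in the other 3 kidneys Hnf4a was at least 89.2 and Pax2 at most 63.4 CPM per kb. Single kidneys likewise made the overlap of Esrra and Pax8 in the controls (replicate 3), of Pax8 and Ppargc1a in set A (replicate 4) and of Esrra and Rxra in set B (replicate 3). Leaving out any other kidney changed neither the order nor which neighbours overlapped.

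Several members have close relatives with related functions, so each family was followed as a whole. The other retinoid X receptors were Rxrb and Rxrg. Rxrb was at 108 ± 10.7 CPM in the controls and 83.9 ± 12.6 and 85.7 ± 15.7 CPM in sets A and B, with a log2 fold change of -0.34 over all ischemic kidneys (adjusted p = 0.0868 in edgeR). Rxrg had counts in 3 kidneys (7, 47 and 23 counts) and 0 in the other 9, and was not tested. Rxra made up 30.3 ± 1.66% of the summed CPM per kb of its family in the controls, 20.2 ± 3.21% and 15.6 ± 6.81% in sets A and B (SD, n = 4). Its share was lower in all 8 ischemic kidneys than in any control (exact two-sided permutation p = 0.00404, adjusted 0.0377 over the 28 ratios and shares). For each set alone the exact p was 0.0286, the smallest that 4 against 4 kidneys allow, which became 0.0727 after adjustment. Leaving out replicate 4 gave a share of 17.4 ± 7.0% in set B (SD, n = 3).

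The PGC-1 family moved in both directions. Ppargc1b (PGC-1beta) fell over all ischemic kidneys (log2 fold change -1.27, SE 0.41, adjusted p = 0.0264 in edgeR), with adjusted p = 0.197 and 0.0282 in sets A and B taken alone. The latter became 0.0643 in edgeR without replicate 4 of set B (log2 fold change -1.32). Pprc1 (PRC), the related coactivator, rose from 16.4 ± 2.30 CPM in the controls to 47.4 ± 5.46 and 46.2 ± 9.41 CPM in sets A and B (log2 fold change over all ischemic kidneys 1.51, SE 0.20, adjusted p = 5.99e-06 in edgeR). The share of Ppargc1a in the family was 91.1 ± 3.07% in the controls, 74.5 ± 5.01% and 79.6 ± 5.51% in sets A and B, without overlap (exact two-sided permutation p = 0.00404 for all ischemic kidneys, adjusted 0.0377). For each set alone the exact p was again 0.0286, and 0.0727 after adjustment, and without replicate 4 the share in set B was 77.2 ± 3.58% (SD, n = 3).

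Within the PPAR family, Ppard had a log2 fold change of 0.29 over all ischemic kidneys (adjusted p = 0.593 in edgeR) and Pparg one of -0.08 (adjusted p = 0.974). For both genes replicate 4 of set B was above every control. Without it these log2 fold changes were 0.08 for Ppard and -0.87 for Pparg (adjusted p = 0.892 and 0.635 in edgeR). In set B they were then -0.31 for Ppard and -1.57 for Pparg, in place of 0.11 and 0.02, and neither passed the threshold. The share of Ppara was 42.6 ± 4.27% in the controls, 14.0 ± 12.9% and 30.8 ± 14.8% in sets A and B. It overlapped the controls in set B, and did not pass after adjustment (exact two-sided permutation p = 0.00808 for all ischemic kidneys, adjusted 0.0566). The low end of set B was replicate 4, at 9.22%, and without it the share was 38.0 ± 4.15% (SD, n = 3). Esrrb, the third ERR gene, was at 32.4 ± 15.1 CPM in the controls and 14.2 ± 3.35 and 15.2 ± 10.9 CPM in sets A and B. It fell over all ischemic kidneys (log2 fold change -1.15, SE 0.34, adjusted p = 0.0145 in edgeR), with adjusted p = 0.0401 and 0.0594 in sets A and B taken alone. Its highest ischemic level was that of replicate 4 of set B, and without this kidney the gene also fell in set B (log2 fold change -1.73, adjusted p = 0.00122 in edgeR). The share of Esrrg in the ERR family was 58.1 ± 6.43%, 61.9 ± 3.86% and 66.6 ± 5.92% in control, set A and set B, with overlapping ranges. Without replicate 4 this share was 69.4 ± 2.21% in set B (SD, n = 3), and its range still overlapped that of the controls. Hnf4g, the other HNF4 gene, was at 3.92 ± 3.07 CPM in the controls and at most 4.81 CPM in any ischemic kidney, and Hnf4a made up at least 97.99% of its family in every kidney.

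**Figure D4:**
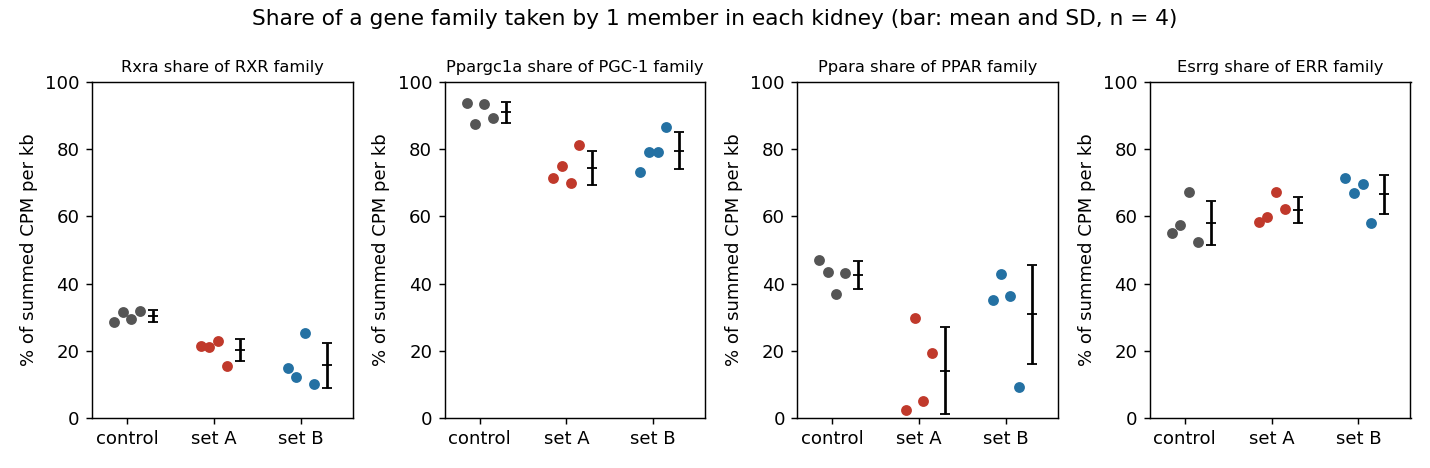
Share of the summed CPM per kb of a gene family (vertical axes, %) taken by Rxra, Ppargc1a, Ppara and Esrrg in each kidney, with the mean and SD of each group (n = 4). The Rxra share lies between 28.5% and 31.8% in the controls and between 10.04% and 25.4% in the ischemic kidneys, and the Esrrg shares overlap.

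Next, the genes that the members regulate or work with were counted, in lists of genes known for these pathways. The lists were chosen with earlier results of these data known, so their counts are a description. Of 45 tested genes that depend on HNF4A in the proximal tubule, 41 were lower and 0 higher over all ischemic kidneys against control (median log2 fold change -2.65), beside 26.4% of all genes past the threshold (14.2% lower and 12.2% higher, median -0.03). Taken alone, sets A and B had 37 and 40 lower, and 0 higher in both. Mep1b (meprin beta, a brush border protease) fell most (-6.10, SE 0.50, adjusted p = 1.54e-08 in edgeR). These are proximal tubule genes, and all 10 proximal tubule markers fell alongside them.

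Of 47 tested target genes of the ERR receptors and PGC-1alpha, 33 were lower and 1 higher (median -1.03), with 32 and 31 lower in sets A and B. Sod2, the mitochondrial superoxide dismutase, had the largest fall (-2.19, SE 0.15, adjusted p = 1.37e-09 in edgeR), then Idh2, the mitochondrial isocitrate dehydrogenase (-1.61, SE 0.12, adjusted p = 2.05e-09). Ckmt1, the mitochondrial creatine kinase, was the gene that rose (0.89, SE 0.17, adjusted p = 4.84e-04). None of the 12 tested factors that transcribe the mitochondrial genome or act as nuclear respiratory factors passed the threshold (median -0.11), in either set or over both.

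Of 43 tested PPARA target genes, 20 were lower and 5 higher (median -0.96), with 17 lower and 4 higher in each set. The share that was higher was no larger than the 12.2% of all genes that were higher, and the share that was lower exceeded the 14.2% of all genes. Slc27a2, a fatty acid transporter and acyl-CoA synthetase, fell (-2.98, SE 0.22, adjusted p = 2.49e-09 in edgeR), as did Ephx2, the soluble epoxide hydrolase (-2.65, SE 0.26, adjusted p = 1.80e-07). Among those that rose were Plin2, which coats lipid droplets (3.36, SE 0.19, adjusted p = 9.74e-11), and Cyp4a14, a fatty acid hydroxylase (4.86, SE 1.16, adjusted p = 0.00311). Cyp4a14 had 0 to 30 counts in the controls, belongs to a gene cluster of near copies between which reads can be split, and had a single count in replicate 4 of set B, so that its ranges overlapped.

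Of 32 other nuclear receptors tested, 13 were lower and 1 higher (median -0.40), with 11 lower and 1 higher in each set. Among them Nr1h3, the oxysterol receptor LXRalpha, fell (-1.59, SE 0.34, adjusted p = 0.00117 in edgeR), and Nr4a2, an immediate early orphan receptor, rose (1.46, SE 0.29, adjusted p = 6.42e-04). Of 21 coactivators and corepressors tested, 4 were higher and 4 lower (median -0.004), shares not far from the 12.2% higher and 14.2% lower of all genes. Prmt1, an arginine methyltransferase, rose (1.24, SE 0.14, adjusted p = 1.27e-06) together with Pprc1, and Ncoa4 fell (-0.93, SE 0.27, adjusted p = 0.0129) together with Ppargc1b.

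Of 43 tested transcription factors of the nephron lineage and its segments, 12 were higher and 8 lower (median 0.11), 9 and 8 in set A and 12 and 7 in set B. Sox9, which marks dedifferentiated and regenerating tubule cells, rose from 3.69 ± 3.96 CPM in the controls to 122 ± 23.7 and 93.5 ± 19.8 CPM in sets A and B (log2 fold change over all ischemic kidneys 4.82, SE 0.62, adjusted p = 5.90e-06 in edgeR), and the related Sox4 rose by 1.71 (SE 0.26, adjusted p = 3.36e-05). Lhx1, an early nephron factor (-2.64, SE 0.62, adjusted p = 0.00266), and Emx1 (-2.47, SE 0.58, adjusted p = 0.00283) fell most. Of 19 tested partners and targets of PAX2 and PAX8, none was higher and 6 were lower (median -0.39), with 6 and 4 lower in sets A and B. Past the threshold in either direction were 26.4% of all genes over all ischemic kidneys, and 22.3% and 22.8% in sets A and B. Of all genes 14.2% were lower over all ischemic kidneys, and 11.7% and 11.9% in sets A and B. The list is too short to be read as apart from these shares. The largest falls were those of Sfrp1, a secreted Wnt antagonist (-2.70, SE 0.23, adjusted p = 2.98e-08 in edgeR), and of Lhx1, which is in both lists.

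**Figure D5:**
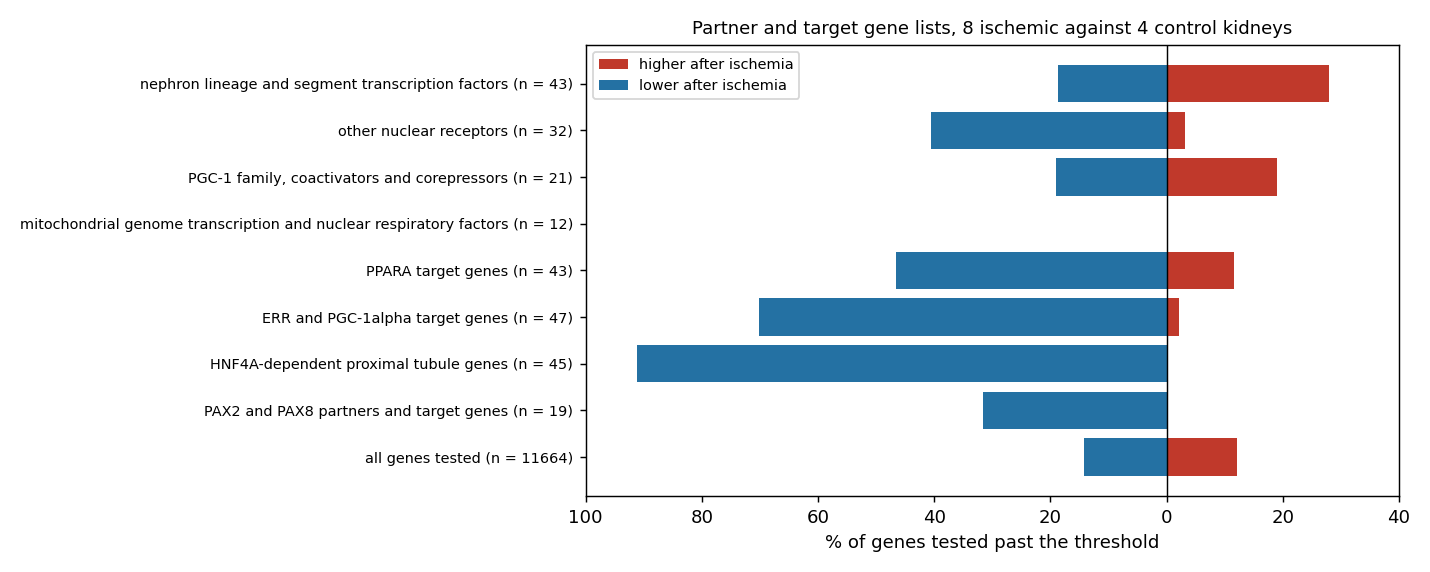
Percent of the tested genes of each list that were past the threshold as higher (right of 0) or lower (left of 0) in the 8 ischemic against the 4 control kidneys, with all 11664 genes tested in the bottom bar. The HNF4A-dependent genes (41 of 45 lower) and the ERR and PGC-1alpha target genes (33 of 47 lower) extend farthest to the left, and the mitochondrial factors have no bar.

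Lastly, the genes whose profile over the 12 kidneys was closest to that of a member were sought, by the root mean square difference of centred log2 CPM among 8513 genes. This is a description with no test, and the controls and ischemic kidneys enter it together. For Rxra, Aldh2, the mitochondrial aldehyde dehydrogenase, was at 0.24. Hnf4a was nearest to Gss, glutathione synthetase (0.21), and Tmbim6 (0.23), and Esrra to Tln2 (0.24) and Shank2 (0.24). Esrrg and Ppargc1a shared the same nearest gene, Rbbp9 (0.15 and 0.19), followed by Dmxl1 (0.17) and Map7 (0.20). Pax8 was nearest to the RNA-binding protein genes Hnrpdl (0.15) and Ptbp3 (0.16), and Pax2 to Bcr (0.15) and Fbrs (0.15). Ppara had no close neighbour, with Usp11 at 0.60 and Acot12, a gene in the PPARA list, at 0.72.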

How the data were processed

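Messenger RNA of 12 mouse kidneys (4 control, 4 ischemia set A, 4 ischemia set B) was measured by RNA sequencing. Per the study's methods and the submitters' processing notes, the authors prepared stranded mRNA libraries, sequenced single reads, used STAR for mapping to mm10 and HTSeq for counting. What the authors deposited is a table of raw counts for 23420 genes, not normalized. Tool versions, annotation release and the strand setting are not given in the sources used here. The deposited counts were analysed in edgeR 4.0.16 with R 4.3.3. Genes were filtered with the default settings of edgeR (minimum count 10, minimum total 15), libraries were scaled by TMM (factors 0.968 to 1.03), and a negative binomial model with 3 group coefficients was fitted to all 12 kidneys. Each ischemic set against the controls, the sets against each other and all ischemic kidneys against the controls were compared with quasi-likelihood F-tests (two-sided), adjusted over all 11664 genes by Benjamini and Hochberg. Standard errors came from the F statistic, and 95% intervals from a t distribution on the model's degrees of freedom. Values per kb used exon lengths of GENCODE M21. Ratios and shares were compared with exact two-sided permutation tests.

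Total counts had medians of 32884589.5, 27158369.5 and 18181497.5 in control, set A and set B, and edgeR estimated 0.762 as common biological coefficient of variation. The kidneys are numbered within each group by the labels and are 4 mice per group by the series' design text. Whether control and ischemic kidneys share mice is not settled by the sources. No pair of replicates agreed within sampling noise (chi-square per degree of freedom at least 48.9). On simulated counts for set A against control with 10741 genes, 57 of 100 genes changed 4-fold and 23 of 100 changed 2-fold were found, 0 in the wrong direction, beside 2 unchanged genes. Only these genes were changed in the simulation, whereas 2599 genes passed in the data for this comparison. The shares found are therefore not the sensitivity for the members.

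Named genes were the 8 members, their family genes, the 2 largest rises and the 2 largest falls past the threshold in each list over all ischemic kidneys (mean log2 CPM at least 1), and the 2 nearest profiles of each member (same minimum), of which a few are not reported here. The members, lists and marker genes were chosen with earlier results of these data known. The alternatives were DESeq2 1.42.0, limma-trend (limma 3.58.1), RLE size factors, library totals, no filter, a filter of above 1 CPM in 4 kidneys or more, a fit of the compared groups alone, a block for the replicate number, and leaving out each kidney. Shares without length scaling, and shares and the order of levels without each kidney, were added after seeing the data. Promoters were 250 bases before the start in 32851 RefSeq windows of 27025 genes (GRCm38.p6). Promoters, shares and figures were computed in Python 3.11.15 (SciPy 1.17.1, NumPy 2.4.6, pandas 2.3.3, matplotlib 3.10.9).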

Additional observations from a re-analysis of the deposited data

Results flagged for a closer look

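Single kidneys that lay far from the other 3 of their group were sought with Dixon's criterion (a gap that takes up most of the group's range) in 171 groups of 4 values. It marked 16 groups (9.4%). Its nominal rate of about 1 in 20 holds for independent, normally distributed values. These groups include zeros and shares computed from the same genes, so that rate does not apply and no excess over chance was shown. Among the members these were Pax8 in set B (271 CPM in replicate 2), Ppargc1a in set A (274 CPM in replicate 4) and Ppargc1a in set B (357 CPM in replicate 4), each above the other 3 kidneys of its set. Both Ppargc1a values are from kidneys whose injured tubule marker sum was the highest of their set (1187 and 1682 CPM), and the part of that in the values was not tested.

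In the families of the members, the criterion marked Esrrb in set B (31.4 CPM in replicate 4), Hnf4g in the controls (8.49 CPM in replicate 1), Pparg in set A (8.79 CPM in replicate 4) and the Hnf4a share of the HNF4 family in the controls (98.9% in replicate 1). Rxrg was above 0 in 1 kidney of each group, with 0.183 CPM in control replicate 4, 1.49 CPM in set A replicate 1 and 0.775 CPM in set B replicate 1. The Pax8 to Hnf4a ratio was low in control replicate 2 (0.0469). Other named genes marked were Emx1 in set B (0.0 CPM in replicate 2), Gss in set A (116 CPM in replicate 2), Fbrs in the controls (206 CPM in replicate 4), Usp11 in the controls (11.3 CPM in replicate 1) and Rbbp9 in the controls (74.5 CPM in replicate 1).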

How the results depend on the processing

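The 6 members past the threshold against control kept their direction and stayed past it in all 20 alternatives for each set and all 19 for the ischemic kidneys together. Pax2 passed in none. Ppara passed over all ischemic kidneys in 4 of 19, with adjusted p = 0.0453 in DESeq2, 0.0437 in limma-trend, and in edgeR 0.0275 without set A replicate 2 and 0.0409 without set A replicate 4 (range 0.0275 to 0.186), in set A in 4 of 20, and in set B in 0 of 20 (0.0909 to 0.514). Signs turned for Pax2 in set A without set A replicate 1 (log2 fold change -0.008, leave-one-out range -0.008 to 0.184). In set B against set A they turned for Pax8 without set B replicate 2 (-0.075, range -0.075 to 0.211), and without set B replicate 4 for Hnf4a (0.011, range -0.456 to 0.011) and Esrra (-0.117, range -0.117 to 0.346). None of these was past the threshold.

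The genes past the threshold in set B against set A numbered 1, and 29 in DESeq2, 6 without a low-count filter, 0 with only the groups compared (336 at an unadjusted p below 0.05) and 0 in limma-trend (683). Leaving out 1 kidney gave 0 to 7, with 7 without set B replicate 4 and 3 without set B replicate 2. DESeq2 also called 1 mitochondrial factor in set A against control, and in set B against set A 1 other nuclear receptor, 1 PPARA target gene and 2 HNF4A-dependent genes, where edgeR called 0, 0 and 1. The causes were not tested.

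The replicate numbers did not pair the kidneys. Deviations of same-numbered kidneys correlated between -0.0554 and 0.0452 in 12 pairs, and 0 kidneys correlated best with their own number in both other groups. With the replicate number as a block, 2491 genes passed for set A and 2531 for set B against the controls, 2974 for all ischemic kidneys and 1 between the sets. The 6 members also passed with the block in each comparison against the controls. Rxrg had too few counts to be tested.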

Other observations

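Marker genes of other cell types gave these values beside the members. Of 6 podocyte markers tested, 3 were higher in each set against control in edgeR and 0 lower, with a summed level of 304 ± 40.05 CPM in the controls and 441 ± 99.7 CPM in the 8 ischemic kidneys (SD). Collecting duct principal cell markers had 0 of 6 past the threshold in either set, with summed levels between 143 and 196 CPM in the controls and between 96.5 and 291 CPM in the ischemic kidneys. Thick ascending limb markers had 3 of 7 lower in each set and 0 higher, with summed levels between 1889 and 2032 CPM in the controls and between 284 and 795 CPM in the ischemic kidneys. Fibroblast and smooth muscle markers summed to between 749 and 979 CPM in the controls and between 1649.6 and 4236 CPM in the ischemic kidneys, with 4 of 7 higher in each set and 0 lower. Distal convoluted tubule markers summed to between 1745 and 2469.6 CPM in the controls and between 915 and 1650.3 CPM in the ischemic kidneys, with 2 and 3 of 5 lower in sets A and B. Leukocyte markers summed to between 44.7 and 67.3 CPM in the controls and between 9.45 and 35.6 CPM in the ischemic kidneys, with 2 of 5 tested lower in each set and 0 higher. The median log2 fold change of these 5 was 0.47 over all ischemic kidneys (-0.006 in set A and 0.57 in set B), so the list was split. Of the 9 leukocyte markers in the count table, 2 were at 0 in every kidney. Endothelial markers summed to between 129.6 and 151 CPM and between 60.7 and 133 CPM, with 0 of 6 tested past the threshold in set A and 1 lower in set B. Intercalated cell markers summed to between 172 and 302 CPM and between 135 and 429 CPM, with 1 of 6 lower in each set. Liver markers summed to between 96.9 and 156 CPM and between 20.7 and 79.2 CPM, with 1 and 2 of 3 tested lower in sets A and B. The part of these in the levels of the members was not tested.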
